A study of Saccharomyces cerevisiae with 6 samples.

Results

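The zinc regulon of budding yeast (Saccharomyces cerevisiae) was examined through 7 genes: ZPS1, ZRT1, ZRT2, ZRT3, ZAP1, ADH4 and ZRC1. They were chosen by gene symbol, ZPS1 because its signal was seen to be higher in H2B K123R than in wild type, and the other 6 because they are zinc genes that could be set beside it. The 7 are among 5656 genes that a probe set of the array names alone, and they have 11 probe sets between them. Because the same comparison prompted the choice, the members' differences are described below without p-values, and the count of members called is given as a description only.

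Zinc is a cofactor of many enzymes and transcription factors, and yeast holds its free level within narrow limits. Zap1, the product of ZAP1, is the activator that senses zinc: when zinc is scarce it binds zinc-responsive elements in its target promoters, its own included. Its targets bring zinc in through the plasma membrane, release it from the vacuole, or lessen the need for it.

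The arrays compared 2 strains. Y117 carries wild-type histone H2B. Y118 carries H2B with the K123R substitution, in which arginine replaces the lysine that is monoubiquitinated. Early stationary phase cultures of each strain, in triplicate, were put into fresh rich medium (YPD) at an optical density of 0.3 and reached an optical density of 2.0 after 7 hours of shaking at 30 degrees. Total RNA of each culture went onto an Affymetrix S98 oligonucleotide array of its own, read in a single channel, giving 3 arrays per strain. Each group is 1 strain, so the substitution and any other difference between the strains cannot be told apart. The labels do not give the genetic background, whether another H2B gene copy is present, or the zinc content of the medium.

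Median signals lay between 131 and 140 on the 6 arrays. The array of K123R replicate 1 stood apart, whose log2 signals correlated at 0.958 with replicate 2 and at 0.969 with replicate 3, while replicates 2 and 3 correlated at 0.991 and the wild-type arrays at 0.992 to 0.995 with each other. For each member the difference without that array is therefore given as well, and for the other genes given with a log2 difference, wherever it was over 1.5 times larger or smaller without it. The mean signals of the mating type markers differed between the strains. The means of the 6 a-specific genes were all lower in K123R, with summed signals of 12973 to 13726 on the wild-type and 10635 to 11585 on the K123R arrays, and limma called MFA1 (log2 -0.61, by an _f probe set, which relatives of the gene can share) and BAR1 (-0.40). Those of the 4 alpha-specific genes were all higher, with sums of 263 to 298 and 371 to 444, and limma called MF(ALPHA)1 (0.66) and MF(ALPHA)2 (0.62). The other 4 a-specific and 2 alpha-specific genes were not called, and the groups overlapped for MFA2 and STE3. Limma called 8.98% of all genes on their brightest probe sets. The 4 marker calls held without K123R replicate 1 and were lost without any other single array. No marker was at 0 on an array, and the part of these shifts in the zinc values was not tested.

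Across the array, limma called 620 of 9275 probe sets (6.68%) at a Benjamini-Hochberg adjusted p under 0.05, 4.22% of all probe sets higher and 2.47% lower in K123R. The signals of the groups did not overlap for 32.5% of all probe sets. Among the 7 members, each on its brightest probe set, 4 were called, 2 higher (ZPS1 and ZRT3) and 2 lower (ZRT2 and ADH4), and for these same 4 the groups did not overlap. Nothing is read from that count, since this contrast led to the choice of the genes. The log2 differences of the 7 ran from -0.78 to 0.79, with a median of 0.07. Over all 5656 genes on their brightest probe sets the median was 0.08, with quartiles at -0.13 and 0.28. The members thus did not share a direction. No member was called without wild-type replicate 1, 2 or 3 or without K123R replicate 3. In these fits the calls over the array also dropped, to 59, 42, 22 and 70. Without K123R replicate 1 there were 4 members called, and without K123R replicate 2 there were 3. The calls over the array were then 1023 and 500. Nothing is read from these counts either. All folds and log2 differences are K123R against wild type on the log2(signal + 16) scale, on which differences of dim genes come out smaller than they are. Signals are in array units, and no gene's level is set against another's, except that dim signals are set beside those of the array's mouse control probe sets.

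**Figure D1:**
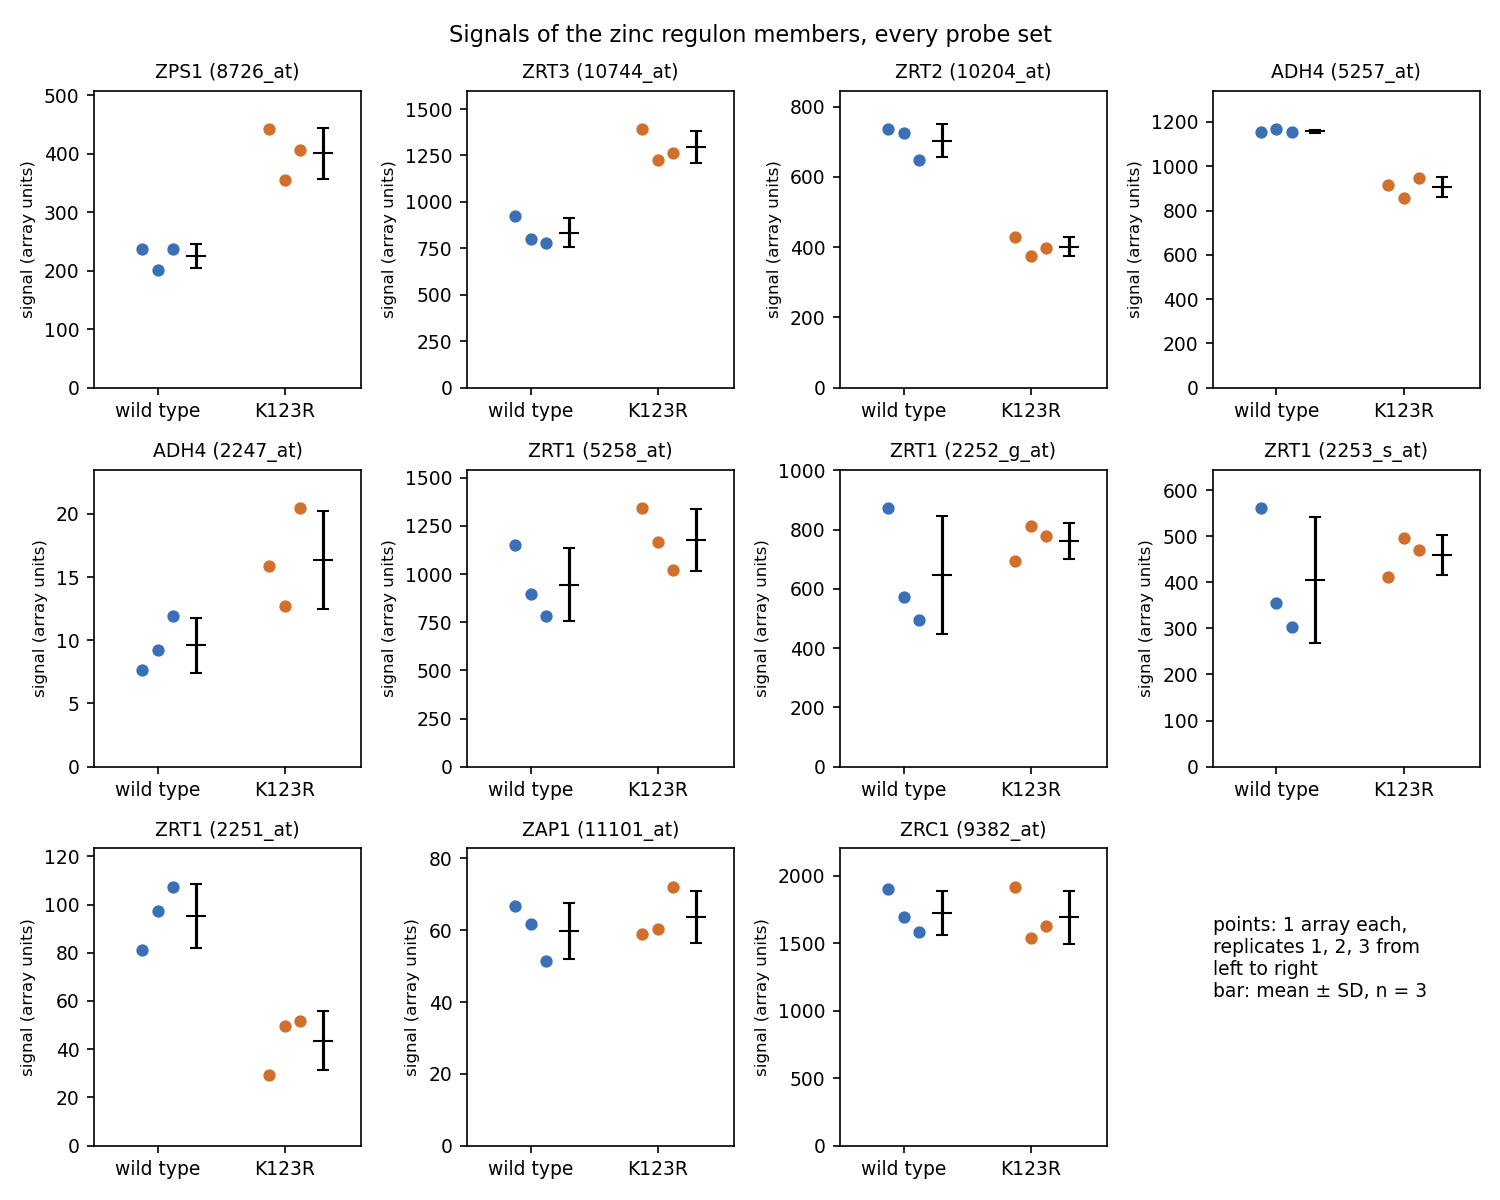
Signal of each member's probe sets (y axis, linear array units from 0) on the 3 wild-type and 3 K123R arrays, with the mean and SD of each group (n = 3). ZPS1 and ZRT3 lie higher and ZRT2 and ADH4 (5257_at) lower in all K123R arrays, while the brighter probe sets of ZRT1, and those of ZAP1 and ZRC1, overlap. The dimmest probe set of ZRT1 (2251_at) lies lower and that of ADH4 (2247_at) higher in all K123R arrays.

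ZPS1 encodes a putative cell surface protein and is a classic Zap1 target that is strongly induced in zinc-poor medium. Its only probe set (8726_at) read 237, 201 and 236 on wild-type replicates 1, 2 and 3, and 442, 354 and 406 on K123R replicates 1, 2 and 3. Every K123R array was above every wild-type array, and the gap between the groups was wider than the range within either. The means were 225 ± 20.4 and 401 ± 44.0 (SD, n = 3 here and below), a 1.73-fold difference (log2 0.79). Without K123R replicate 1 the log2 difference was 0.72. Ordered from the largest positive difference down, ZPS1 was number 158 of the 9275 probe sets.

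ZRT3 encodes the transporter that releases stored zinc from the vacuole when zinc is short. It read 925, 802 and 777 in wild type and 1391, 1228 and 1266 in K123R (10744_at). As for ZPS1, the groups did not overlap and the K123R arrays were the higher ones. The means were 835 ± 79.4 and 1295 ± 85.4, a 1.54-fold difference (log2 0.63, and 0.57 without K123R replicate 1).

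ZRT2, the gene of the low-affinity zinc importer of the plasma membrane, differed in the other direction. Zap1 is known to act on it in both senses, activating it in mild and repressing it in severe zinc deficiency. Its probe set (10204_at) read 736, 724 and 648 in wild type and 430, 375 and 399 in K123R. The highest K123R array was well below the lowest wild-type array. The means of 703 ± 47.4 and 401 ± 27.5 gave a 1.72-fold lower signal in K123R (log2 -0.78, and -0.83 without K123R replicate 1). In size this difference was close to that of ZPS1, with the opposite sign.

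ADH4 encodes an alcohol dehydrogenase isoenzyme whose expression Zap1 raises in low zinc, when that of the abundant zinc enzyme Adh1 is reduced. On its brighter probe set (5257_at) it read 1153, 1167 and 1154 in wild type and 914, 859 and 949 in K123R. The wild-type arrays were nearly identical and all lay above the K123R arrays. The means were 1158 ± 7.94 and 907 ± 45.3, a 1.27-fold lower signal (log2 -0.35, the same to 2 decimals without K123R replicate 1). The dimmer probe set (2247_at) went the other way, from 9.60 ± 2.19 to 16.4 ± 3.89 (log2 0.33, and 0.34 without K123R replicate 1). There too the groups did not overlap. Its signals of 7.62 to 20.4 lay nearly all within 0.922 to 18.3, the signals of the array's 4 mouse control probe sets. With both probe sets averaged the log2 difference of ADH4 was -0.01.

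ZRT1, the high-affinity importer of the plasma membrane and a main route of zinc uptake in deficient cells, had 4 probe sets that disagreed. The brightest (5258_at) read 1153, 899 and 781 in wild type and 1342, 1166 and 1020 in K123R. The groups overlapped, since wild-type replicate 1 exceeded K123R replicate 3. The means were 944 ± 190 and 1176 ± 161 (log2 0.32, and 0.22 without K123R replicate 1). Leaving out 1 array moved this difference between 0.20, without wild-type replicate 3, and 0.47, without wild-type replicate 1. The probe sets 2252_g_at and 2253_s_at, of which the second is of a type that shares probes between transcripts, gave log2 differences of 0.27 and 0.21 (0.34 and 0.29 without K123R replicate 1). The same 2 wild-type arrays moved these the most, from 0.10 to 0.50 and from 0.03 to 0.46. Their groups overlapped too, with wild-type replicate 1 above all 3 K123R arrays on both (872 against 693 to 813, and 561 against 411 to 495). The dimmest, 2251_at, read 81.1, 97.2 and 107 in wild type and 29.4, 49.7 and 51.5 in K123R. There the groups did not overlap and K123R was lower (95.1 ± 13.2 against 43.5 ± 12.3, log2 -0.92, and -0.73 without K123R replicate 1). Averaged over its 4 probe sets, ZRT1 had a log2 difference of -0.03. The deposited values thus give no single direction for ZRT1.

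ZAP1, the gene of the activator itself and one of its own targets, read 66.6, 61.7 and 51.3 in wild type and 58.8, 60.3 and 72.0 in K123R (11101_at). The groups overlapped, with means of 59.9 ± 7.81 and 63.7 ± 7.18 (log2 0.07, and 0.12 without K123R replicate 1). The sign of this small difference turned without wild-type replicate 3 (-0.01), and the difference was close to 0 without K123R replicate 3.

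ZRC1, which encodes the transporter that stores zinc in the vacuole and so acts opposite to Zrt3, read 1898, 1694 and 1581 in wild type and 1915, 1539 and 1625 in K123R (9382_at). The groups overlapped almost fully, and the means were 1724 ± 161 and 1693 ± 197 (log2 -0.03, and -0.12 without K123R replicate 1). Its sign turned without wild-type replicate 1 (0.04) or K123R replicate 2 (0.04). Of these 2 vacuolar zinc transporter genes, ZRT3 was higher in each K123R array, and ZRC1 differed by less than the spread between replicates. COT1, the gene of a second vacuolar importer described below, was also higher in each K123R array (log2 0.35), though limma did not call it.

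Other zinc genes gave a wider view of the regulon. Of 24 listed Zap1 targets outside the 7 members, 23 were measured, and limma called 1 lower and none higher in K123R, 4.35% of the list against 6.68% of all probe sets and 8.98% of all genes on their brightest probe sets. At an unadjusted p under 0.05 there were 7 of the 23, where 30.7% of all genes were under it, so that the list lay at the share of the whole array. The median log2 difference was -0.03 (-0.12 to 0.04 when 1 array was left out) against 0.08 over all genes, with 8 positive and 15 negative, between -0.59 and 0.34. IZH2, a membrane protein gene of zinc homeostasis related to adiponectin receptors, was the one that fell: it read 1068, 865 and 811 in wild type and 600, 591 and 606 in K123R. The groups did not overlap, and the means of 915 ± 135 and 599 ± 7.40 differed by -0.59 on the log2 scale (limma adjusted p = 0.0349, and 0.00607 to 0.125 over the alternatives). It was not called without wild-type replicate 1, 2 or 3 or without K123R replicate 2 or 3. Without K123R replicate 1, IZH2 and MNT2, both lower, were the 2 targets called.

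FET4, a low-affinity importer of iron and zinc, read 326 ± 47.1 in wild type and 217 ± 11.6 in K123R (log2 -0.55, limma adjusted p = 0.0521). It passed the threshold in 6 of 15 alternatives (0.0139 to 0.158 over all of them), among them quantile normalization and cyclic loess, with the same direction. MCD4, a gene of glycosylphosphatidylinositol anchor synthesis, read 1028 ± 68.6 and 869 ± 11.9 (log2 -0.24, adjusted p = 0.122). ADE17, a purine synthesis gene, read 242 ± 12.9 and 294 ± 12.7 (log2 0.27, adjusted p = 0.148). Neither passed by limma in this fit, although in both the groups did not overlap. MCD4 was called lower after quantile normalization, after cyclic loess and with array weights, and ADE17 was called higher with array weights. ZRG17, part of the zinc transporter of the endoplasmic reticulum, read 259 ± 36.1 and 321 ± 6.24 (log2 0.30, adjusted p = 0.183), and IZH4, a relative of IZH2, read 135 ± 27.7 and 88.0 ± 23.3 (log2 -0.55, adjusted p = 0.174). VEL1 and YOR387C, a pair of Zap1 targets that are similar in sequence, gave means of 9.43 to 15.3 in both strains. These means are no higher than the mouse control signals reached (18.3). On single arrays YOR387C read 23.2 in wild-type replicate 1 and 18.9 in K123R replicate 1, above the controls.

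**Figure D2:**
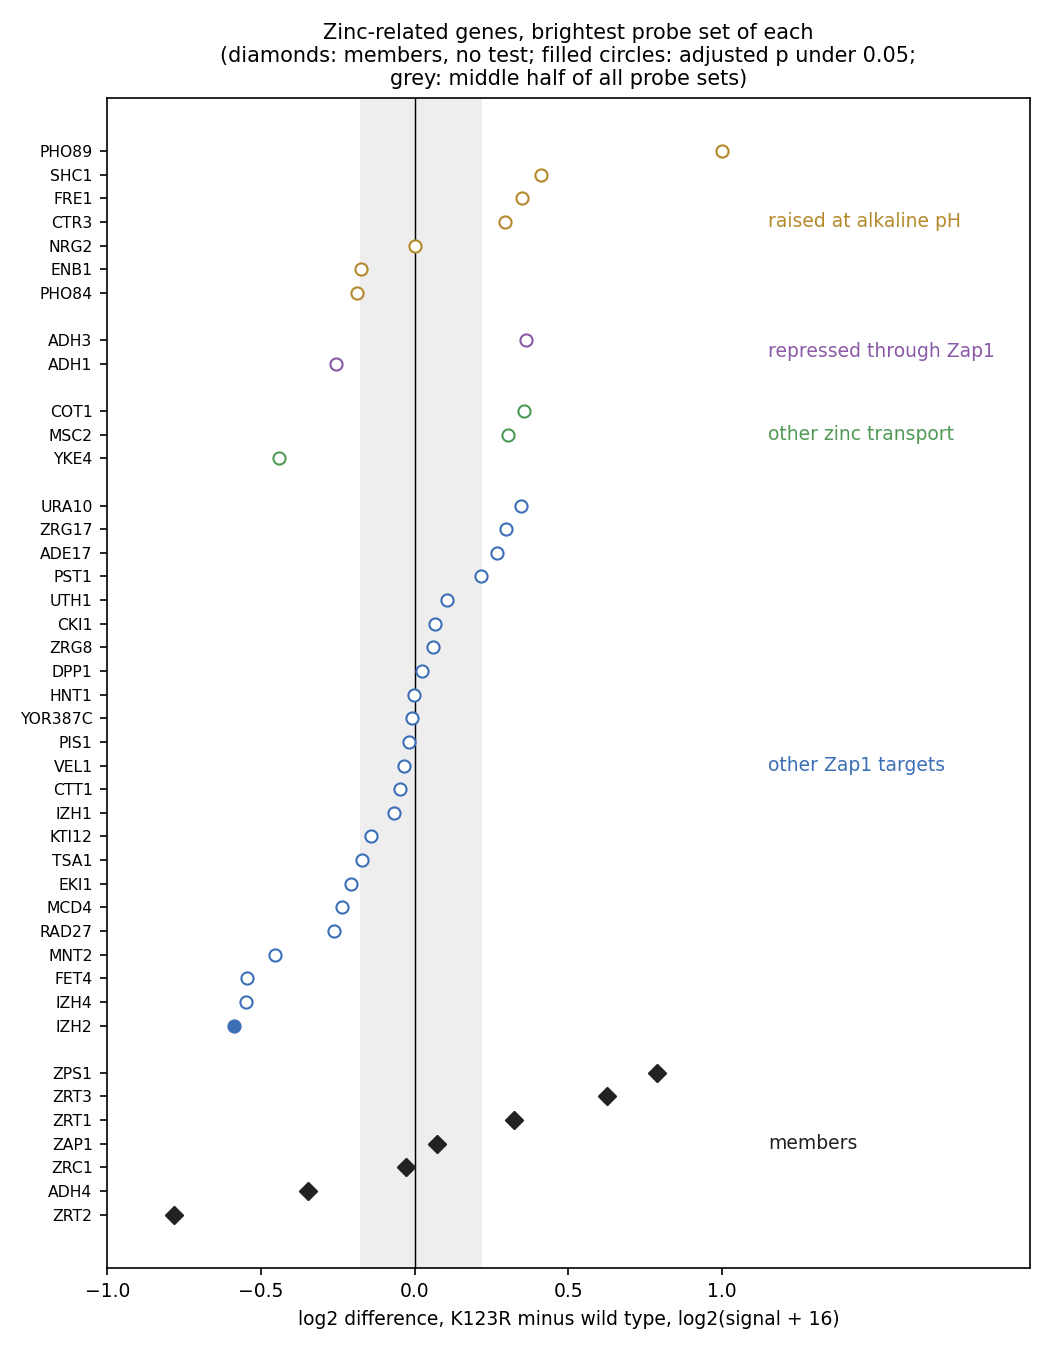
Log2 difference in signal (x axis, K123R minus wild type on the log2(signal + 16) scale) for the 7 members (diamonds) and the genes of 4 further lists (circles), 1 probe set per gene. The members spread from -0.78 to 0.79 and the other Zap1 targets from -0.59 to 0.34, and IZH2 is the only filled circle, called by limma.

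None of the 3 listed zinc transport genes outside the Zap1 targets passed by limma. All 3 had an unadjusted p under 0.05, where 30.7% of all genes did, and 3 genes are too few to set against that share. YKE4, a zinc transporter of the endoplasmic reticulum, read 439 ± 29.2 in wild type and 320 ± 32.0 in K123R (log2 -0.44, limma adjusted p = 0.0627). COT1, the second vacuolar zinc importer beside Zrc1, read 424 ± 21.4 and 548 ± 54.7 (log2 0.35, adjusted p = 0.0927). MSC2, the partner of Zrg17, read 173 ± 7.96 and 218 ± 26.4 (log2 0.30, adjusted p = 0.184). The groups did not overlap for any of them, as for 32.5% of all probe sets, and the directions differed here too. Of the alcohol dehydrogenase genes that are repressed through Zap1 in low zinc, neither passed by limma. An unadjusted p under 0.05 was found for 1 of the 2, a list too short to set against the 30.7% of all genes. ADH1 read 17869 ± 635 and 15071 ± 2124 (log2 -0.26, adjusted p = 0.225) and ADH3 read 2631 ± 146 and 3425 ± 692 (log2 0.36, adjusted p = 0.178). The array of K123R replicate 1 had a lower 99th percentile of signal than the others (8651 against 10241 to 11379). That array held the lowest ADH1 and the highest ADH3 signal of its group. Whether its lower percentile bears on these signals was not tested. Without that array the differences were -0.13 for ADH1 and 0.20 for ADH3, with the same signs, and neither passed.

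ZPS1 is also known as a gene that is raised at alkaline pH. Of 10 other genes with that property, 7 were measured by a probe set of their own, as ENA1, PHO11 and PHO12 share theirs with other genes. None was called by limma, 2 of the 7 had an unadjusted p under 0.05, against the same 30.7% of all genes, and the median log2 difference was 0.29 (0.21 to 0.41 when 1 array was left out) against 0.08 over all genes. PHO89, a sodium-coupled phosphate transporter gene, had the largest difference, from 183 ± 37.5 to 388 ± 122 (log2 1.00, limma adjusted p = 0.0592, and 0.00626 to 0.198 over the alternatives). FRE1, a ferric and cupric reductase gene, read 232 ± 22.6 and 299 ± 27.8 (log2 0.35, adjusted p = 0.139), and PHO84, the high-affinity phosphate transporter gene, read 9774 ± 350 and 8594 ± 771 (log2 -0.19, adjusted p = 0.231, and -0.12 without K123R replicate 1). ENB1, a siderophore transporter gene that is also the fifth gene from ZPS1 on the chromosome, read 1333 ± 70.1 and 1180 ± 77.1 (log2 -0.17, adjusted p = 0.249). PHO89 was called without K123R replicate 1 or without K123R replicate 2, at log2 differences of 0.77 and 1.20, and in 7 of 15 alternatives in all.

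ZPS1 lies on chromosome XV next to HPF1, a cell wall mannoprotein gene, and by the strand letters of their systematic names (YOL154W and YOL155C) the 2 genes are transcribed away from each other. ZPS1 was also chosen as the neighbour of HPF1, so the difference of HPF1 is given without a p-value. HPF1 read 480, 539 and 595 in wild type and 2495, 2368 and 2562 in K123R, a log2 difference of 2.17. The difference of HPF1 was thus the larger of the pair on this scale. Among the 5 protein-coding genes on each side of ZPS1, 8 of 10 were measured. Limma called 1 of them, HPF1, where it called 8.98% of all genes on their brightest probe sets. Nothing is read from that count, since HPF1 was part of the choice. FRE7, a reductase gene of copper uptake on the other side of ZPS1, read 11.5 ± 2.21 and 18.3 ± 0.244 (adjusted p = 0.103), signals up to about the highest of the mouse controls. Beyond it, GRE2, a methylglyoxal reductase gene, had a log2 difference of -0.22 (adjusted p = 0.379), and without K123R replicate 1 it was called lower at -0.36 (adjusted p = 0.0438). DCP1, a subunit gene of the mRNA decapping enzyme, read 164 ± 9.62 and 160 ± 22.2. SPT20, a subunit gene of the SAGA coactivator, read 63.9 ± 22.3 and 85.4 ± 8.52, and PEX11, a peroxisome division gene, read 559 ± 32.2 and 759 ± 133 (adjusted p = 0.112). The short gene YOL155W-A, beyond HPF1, read 42.4 ± 4.42 and 62.5 ± 27.3 (adjusted p = 0.398).

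**Figure D3:**
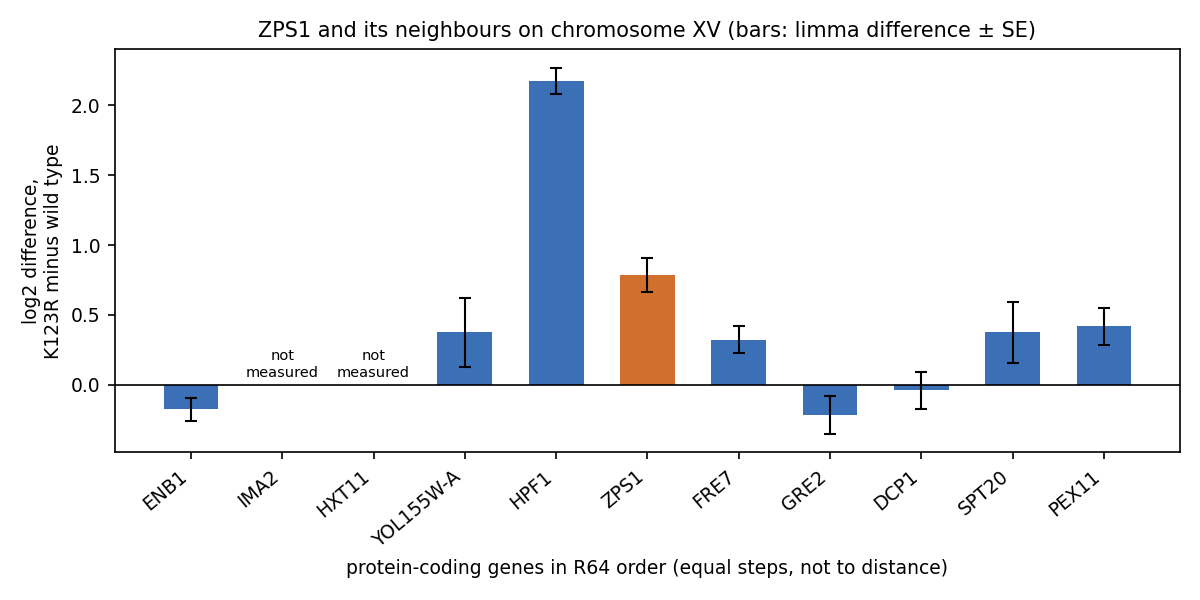
Log2 difference in signal (y axis, K123R minus wild type, bars with the standard error of the limma fit) for ZPS1 and the 5 protein-coding genes on each side in gene order (x axis). HPF1 stands at 2.17 and ZPS1 at 0.79, the other measured neighbours lie between -0.22 and 0.42, and IMA2 and HXT11 have no probe set of their own.

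The other members were looked at in the same way, with 1 neighbour on each side. ADH4 and ZRT1 are next to each other on chromosome VII, with the same strand letter, and MNT2, a Zap1 target and mannosyltransferase gene, lies beyond ADH4. MNT2 read 296 ± 39.8 and 215 ± 54.6 (log2 -0.45, limma adjusted p = 0.202). Of the 10 neighbours that are not members, 8 were measured, and 2 were called higher and 1 lower. Of all genes on their brightest probe sets, 8.98% were called, and 8 neighbours are too few to set against that share. TPO5, a polyamine exporter gene next to ZRT3, rose from 255 ± 12.3 to 446 ± 72.9 (log2 0.76, limma adjusted p = 0.0283, and 0.00393 to 0.136 over the alternatives). FZF1, the activator gene of sulfite export next to ZRT1, fell from 248 ± 14.5 to 170 ± 4.17 (log2 -0.50, adjusted p = 0.0372, and 0.00341 to 0.151 over the alternatives). YMR244W next to ZRC1, at 5.91 ± 1.76 and 15.1 ± 2.04, passed at signals that the mouse controls also reached. All 3 were called without K123R replicate 1, and none of them when any other single array was left out. Whether a neighbour's signal bears on a member's was not tested.

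The profile of ZPS1 over the 6 arrays was compared with that of 3792 other genes of above-median signal, by the root mean square difference of log2 signals after centring. The nearest was YDR248C (0.06; 177 ± 16.4 in wild type and 295 ± 35.9 in K123R). It was followed by SRO77 (0.07; 120 ± 13.4 and 228 ± 28.9), a gene of exocytosis, and OAZ1 (0.07; 228 ± 15.5 and 374 ± 27.4), the ornithine decarboxylase antizyme. COX20 (0.07; 300 ± 15.6 and 530 ± 45.4) serves cytochrome oxidase assembly, and HSP30 (0.08; 847 ± 17.4 and 1392 ± 184) encodes a membrane heat shock protein. None of these 5 is on the zinc lists. Those lists hold few of the 3792 genes, so nothing is read from that. Among the members, ZRT3 was the nearest to ZPS1, at rank 54 (0.13), with ZRT1 at rank 1118 (0.31) and ZRT2 at rank 3674 (0.79). HPF1 was at rank 3588 (0.71). The measure counts the size of a difference as well as its direction. HPF1 differed in the same direction as ZPS1 but by more (log2 2.17 against 0.79), and ZRT3 by a similar amount (0.63). A rank far from ZPS1 thus does not mean the opposite direction.

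The zinc genes also differed between cultures of the same strain. Within wild type, the signal was highest in replicate 1 for 6 of the 7 members, all except ADH4, and for 14 of the 23 measured Zap1 targets outside them. Over all probe sets above the median level, wild-type replicate 1 was the highest for 48.4%. ZRT1 varied the most of the members, with an SD of 0.28 on the log2 scale, larger than that of 96.7% of the 4637 probe sets above the median level, where the median SD was 0.09. ADH4 varied the least (0.01, larger than 1.08% of them). The SDs of ZAP1 (0.15), ZRC1 (0.13), ZRT3 (0.13), ZPS1 (0.13) and ZRT2 (0.10) lay between. In that order they were larger than 81.2%, 74.0%, 73.8%, 71.1% and 54.6% of these probe sets. Within K123R, replicate 1 was the highest for 5 of the 7 members. It was the highest for 58.1% of the probe sets above the median level and for 51.7% of all probe sets. This look at the spread was added after the values had been seen.

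**Figure D4:**
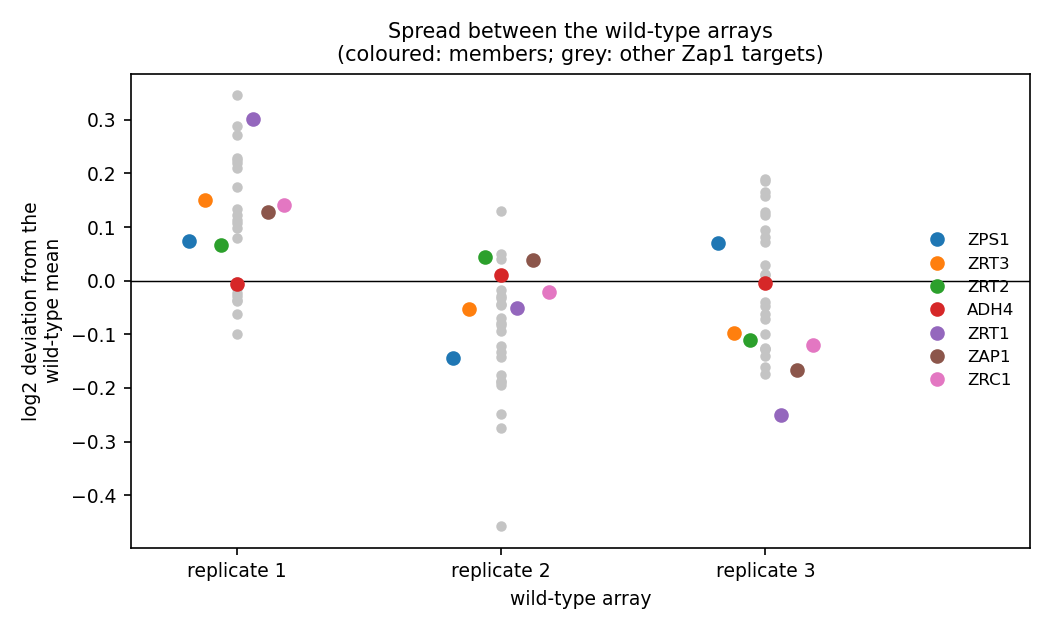
Log2 deviation of each gene from its wild-type mean (y axis) on the 3 wild-type arrays (x axis), for the 7 members (coloured) and the other Zap1 targets (grey). ZRT1 spans from 0.30 on replicate 1 to -0.25 on replicate 3, and ADH4 stays within 0.01 of its mean on all 3.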

How the data were processed

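Total RNA of 3 cultures per strain was labelled and hybridised to Affymetrix S98 arrays, as the labels' protocols say, and the titles gave the groups and replicate numbers. Whether the cultures had separate starters is not given, so p-values measure only the spread between these arrays. Each deposited value is the intensity of a probe set, linear and already scaled by the authors (array means were 500.4 to 500.5 after trimming 2% at each end), by software that the sources used here do not name. Their number limits the precision. Of 9335 probe sets, 60 controls were set aside and 9275 tested as log2(signal + 16) with limma 3.58.1 in R 4.3.3 (empirical Bayes, variance trend, two-sided, Benjamini-Hochberg, threshold 0.05). Array medians differed by 0.0924, under the limit of 0.5 set for a quantile step.

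The platform annotation named 1 gene for 6504 probe sets, several for 328 and none for 2443. The brightest probe set stands for a gene. Gene order came from the R64 table; the array design's build is not given, so no coordinates are printed. Sequences were not used, and a planned motif search was not run. Named genes were the members, their neighbours (5 each side of ZPS1, else 1), the 5 profiles nearest ZPS1, and, per list, called genes and the 4 smallest p. IZH4, ZRG17, VEL1, YOR387C, MNT2 and the choice of which neighbours to describe in full were made with values in view. Members and lists were chosen with earlier results of these data known. The fit was tested on simulated data.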

Additional observations from a re-analysis of the deposited data

How the results depend on the processing

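The signs of the differences of ZPS1, ZRT3, ZRT2 and ADH4, each on its brightest probe set, held in all alternatives run. Most of these alternatives could not have turned them. The groups did not overlap for these genes, so leaving out 1 array, array weights or another pseudocount must keep the sign. The filter, the fit without a variance trend and the replicate block leave the difference itself unchanged. On the log2 scale ZPS1 lay between 0.68 and 0.87 and ZRT3 between 0.54 and 0.70. ZRT2 lay between -0.90 and -0.72 and ADH4 between -0.43 and -0.01, the last with its probe sets averaged. The calls over all 9275 probe sets numbered 2885 with array weights and 22 to 1023 when 1 array was left out. With the replicate block they numbered 307. The other Zap1 targets called, 1 as reported, numbered 2 with a pseudocount of 1, 3 after quantile normalization, 3 after cyclic loess, 2 with a filter on dim probe sets, 8 with array weights, 2 with a gene's probe sets averaged, 0 with the replicate block and 0 to 2 when 1 array was left out. The other zinc transport genes, 0 as reported, numbered 1 with the filter, with array weights and with probe sets averaged, and the genes repressed through Zap1, also 0, numbered 1 with array weights. The alkaline pH genes, 0 as reported, numbered 4 with array weights, 1 after quantile normalization, cyclic loess, the filter or averaging, and 0 to 1 when 1 array was left out. The cause of these moves was not tested. Deviations of same-numbered arrays from their group means correlated at 0.32, 0.38 and 0.05 for replicates 1, 2 and 3, each array best with its own number, a hint from the data only; the labels give no pairing, and the block ended the call of IZH2. With averaged probe sets no count over all probe sets can be given, and the filter leaves ZAP1 out. No detection calls were used, so dim signals were set beside the mouse controls only.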
